A study of Mus musculus with 8 samples.

Results

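The P2 receptors are cell-surface receptors for extracellular ATP and related nucleotides, and 10 of their genes were followed here in mouse dorsal root ganglia, which house the cell bodies of the body's sensory neurons. The genes were chosen by symbol in the deposited table, which lists 40800 genes: P2rx2, P2rx3, P2rx4, P2rx5, P2rx6 and P2rx7 of the P2X channels, and P2ry1, P2ry2, P2ry12 and P2ry14 of the P2Y receptors. Ganglia came from 4 wild-type C57BL/6 mice and from 4 Tmem184b mutants on the C57BL/6 background, homozygous for the gene trap, all 6 months old. A gene trap is an inserted cassette that splices to the upstream exons and truncates the transcript, and a homozygous animal carries it in all its cells, not in neurons alone. Samples are called wild types 1, 3, 4 and 8 and mutants 1, 2, 3 and 4, after their labels. The labels give neither sex nor litter. Xist, the transcript of the inactive X chromosome, had 1615 to 1902 reads in 5 samples and 2 to 7 in wild type 3 and mutants 3 and 4.

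P2X receptors are channels built of 3 subunits that open when ATP binds, and P2Y receptors are G protein-coupled. In sensory ganglia the P2X3 subunit is best known from small nonpeptidergic nociceptors, alone or combined with P2X2 in the P2X2/3 channel, where it carries ATP-evoked pain signals. P2X4 and P2X7 are studied mostly in macrophages and glia, P2Y1 and P2Y2 couple to Gq and phospholipase C, and P2Y12 and P2Y14 couple to Gi. In whole tissue, fewer cells of a type and less RNA per cell cannot be told apart.

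The libraries held 6183618 to 7983821 reads, so that 1 read was worth 0.125 to 0.162 CPM, the count scaled to the library total. Values are moderated log2 CPM, in which a small prior count is added before the logarithm, and differences are mutant minus wild type on that scale. Tmem184b, which checks the labels, stood at 171 ± 8.44 CPM in wild-type ganglia against 6.65 ± 1.30 CPM in mutant ones (SD, n = 4 each), 3.89% of the wild-type level. Pan-neuronal transcripts summed to 9240 to 10300 CPM in wild-type samples and 9270 to 9960 CPM in mutant samples. The comparison asks which P2 receptor transcripts differ once Tmem184b is disrupted. It was fitted with limma over 15030 genes, and a Benjamini-Hochberg adjusted p under 0.05 counted as a call.

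Of the 10 P2 receptor genes, P2rx2 and P2rx3 were lower in the mutant and the other 8 were not called. Of all tested genes 5.46% were called, 2.64% as lower and 2.81% as higher. That split depended on the scaling: 423 genes were called higher and 397 lower as deposited, against 204 and 706 with each sample centred on its median. The groups of 4 samples did not overlap for 2 of the 10 genes, P2rx2 and P2rx3, against 12.4% of all tested genes. The median log2 difference of the 10 was 0.12, beside 0.066 for all tested genes. All 10 passed the filter on low values in all 8 samples. An unadjusted limma p under 0.05 was reached by 2 of the 10, P2rx2 and P2rx3, beside 3206 of the 15030 tested genes.

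**Figure D1:**
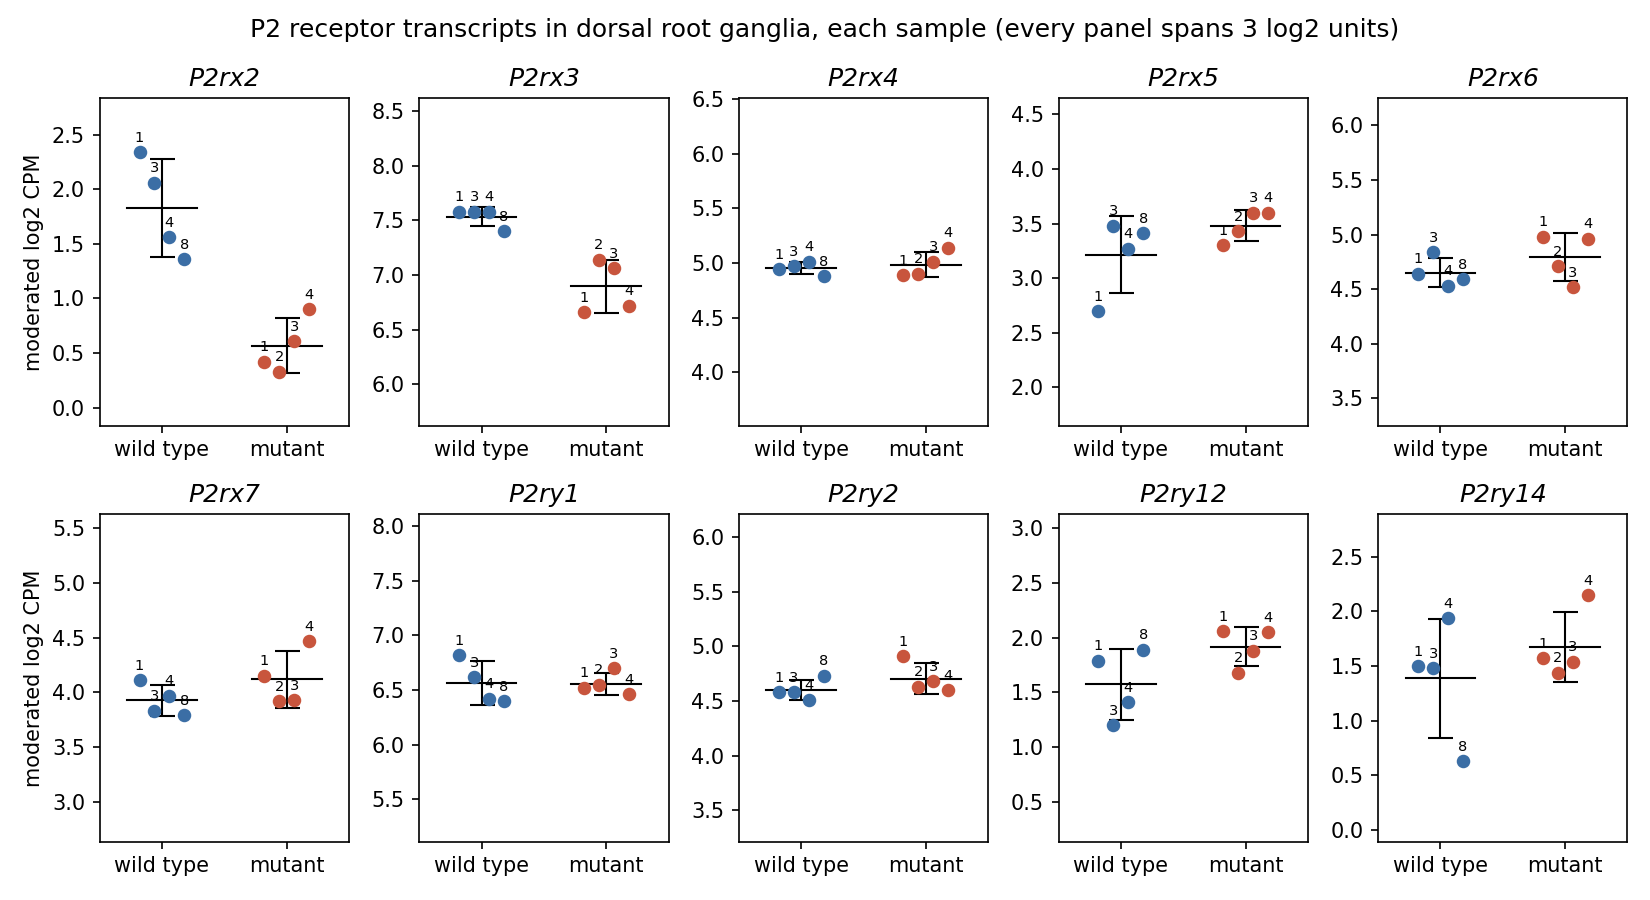
Moderated log2 CPM of the 10 P2 receptor genes in each of the 4 wild-type (blue) and 4 mutant (red) samples, numbered as in the labels, with bars at the group mean and whiskers of 1 SD. Every panel spans the same range in log2 units, and the groups separate in P2rx2 and P2rx3.

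P2rx3 (ENSMUSG00000027071, chromosome 2), the channel subunit of nonpeptidergic nociceptors, had the highest level of the family. Its log2 CPM was 7.58, 7.58, 7.58 and 7.40 in wild types 1, 3, 4 and 8, from 1203 to 1523 reads. In mutants 1 to 4 it was 6.66, 7.14, 7.06 and 6.72, from 675 to 868 reads. Every mutant lay below every wild type, and mutants 1 and 4 lay below mutants 2 and 3. The mean went from 185 ± 11.4 CPM to 120 ± 19.7 CPM (SD, n = 4), which leaves 64.6% of wild type. The fall was 1.56-fold, a difference of -0.64 on the log2 scale (SE 0.0953, 95% confidence interval -0.85 to -0.44; limma adjusted p = 0.00178). Without the mean-variance trend in the variance model the call was lost, at an adjusted p of 0.0600 for the same difference.

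P2rx2 (ENSMUSG00000029503, chromosome 5), the partner of P2X3 in the slowly desensitizing P2X2/3 channel, fell as well, at a far lower level. Reads numbered 30, 31, 18 and 18 in wild types 1, 3, 4 and 8 and 7, 6, 8 and 11 in mutants 1 to 4. On the log2 CPM scale these were 2.34, 2.06, 1.56 and 1.36 in wild type and 0.42, 0.33, 0.61 and 0.90 in the mutant. Again no mutant reached the lowest wild type, though the wild types were spread over almost 1 log2 unit. The mean level was 3.40 ± 1.14 CPM (wild type) and 1.21 ± 0.269 CPM (mutant; SD, n = 4), and 35.5% of the wild-type level remained. Limma gave a log2 difference of -1.27 (SE 0.265, 95% confidence interval -1.83 to -0.70; adjusted p = 0.0134). With so few reads the prior count shrinks this value, and adding 1 CPM instead gave -0.97. The call was lost without the variance trend (adjusted p = 0.0525) and without wild type 1, the sample with the highest P2rx2 (-1.10; adjusted p = 0.0548).

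The sequences of these 2 genes were searched for stretches they share with others. In the GENCODE M21 transcripts, P2rx2 shared none of its 2759 distinct 31-base words with any other gene, and P2rx3 shared 9 of 2810, all with Ssrp1. Ssrp1, a histone chaperone gene that overlaps the start of P2rx3 on the other strand by 51 exon bases, had means of 63.5 CPM (wild type) and 67.1 CPM (mutant), a difference of 0.08 (SE 0.0686; limma adjusted p = 0.537).

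The balance between the P2X2/3 subunits is described without a test, since it is made of members only. Log2 CPM of P2rx3 exceeded that of P2rx2 by 5.24, 5.52, 6.02 and 6.04 in wild types 1, 3, 4 and 8, and by 6.24, 6.80, 6.45 and 5.82 in mutants 1 to 4. These ranges overlap, through mutant 4. The mean gap was 5.71 ± 0.39 (wild type) and 6.33 ± 0.41 (mutant; SD, n = 4), wider by 0.62. With 1 CPM added before the logarithm it was wider by 0.33. Voom, an alternative fit on the reads, put P2rx2 at -1.37 and P2rx3 at -0.645. These lie further apart than the -1.27 and -0.64 of the main fit. The size of the widening thus depends, in both directions, on how the few reads of P2rx2 are treated.

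P2rx3 was then set against other transcripts of the neurons that carry it. NP1 neurons are the nonpeptidergic class marked by the itch and pain receptor Mrgprd. The 6 NP1 transcripts compared were Mrgprd, the lysophosphatidic acid receptors Lpar3 and Lpar5, the neurturin receptor Gfra2, the semaphorin receptor Plxnc1 and the kainate receptor subunit Grik1. All 6 were called lower, with a median of -0.70, and P2rx3 at -0.64 lay within their range of -1.01 for Lpar5 to -0.49 for Gfra2. The list was drawn up with the fall of most of its members known from an earlier analysis of these samples, so it is not independent evidence of direction. Without the variance trend Mrgprd, Gfra2, Plxnc1 and Grik1 were not called, the highest adjusted p being 0.0758 for Gfra2, and Lpar3 and Lpar5 still were. Markers of the other nonpeptidergic classes all had lower means. Of 5 NP2 transcripts 2, Mrgpra3 (limma adjusted p = 0.0438) and Mrgprx1, were called lower (median of the 5, -0.60). Voom called 1 of the 5. Of 8 NP3 transcripts 7 were called lower (median of the 8, -2.21). Other sensory neuron classes did not all go this way. Among 7 peptidergic transcripts, which ranged from -0.32 to 0.10, 1 was called lower. None of 4 C low-threshold mechanoreceptor transcripts was called (median 0.04). Among 8 large neurofilament neuron transcripts 1 was called higher (median 0.16, or 0.07 under median centring).

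Within each sample, P2rx3 stood 0.14, 0.12, 0.17 and 0.06 log2 units above the mean of the NP1 list in wild types 1, 3, 4 and 8. In mutants 1 to 4 it stood 0.10, 0.33, 0.10 and 0.32 above that mean. The groups overlap, and the means were 0.12 ± 0.05 and 0.21 ± 0.13 (SD, n = 4), a difference of 0.09 (exact two-sided permutation p = 0.343). Against the median of the list in place of its mean the difference was 0.04 (exact permutation p = 0.686). Against the pan-neuronal mean, by contrast, P2rx3 stood at -1.83, -1.89, -1.80 and -2.11 in wild-type samples and at -2.68, -2.30, -2.34 and -2.71 in mutant samples, with no overlap. That difference was -0.60 (exact two-sided permutation p = 0.0286, the smallest that 4 against 4 samples allow), while the pan-neuronal mean itself differed by -0.05. Of its 9 genes 6 had lower means and 3 higher, from -0.26 for Rbfox3 to 0.22 for Snap25, and 1, Avil, was called lower (-0.22; limma adjusted p = 0.0203). This second difference largely restates the P2rx3 call, and the first rests on a list chosen with its fall known, so neither adds independent support.

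**Figure D2:**
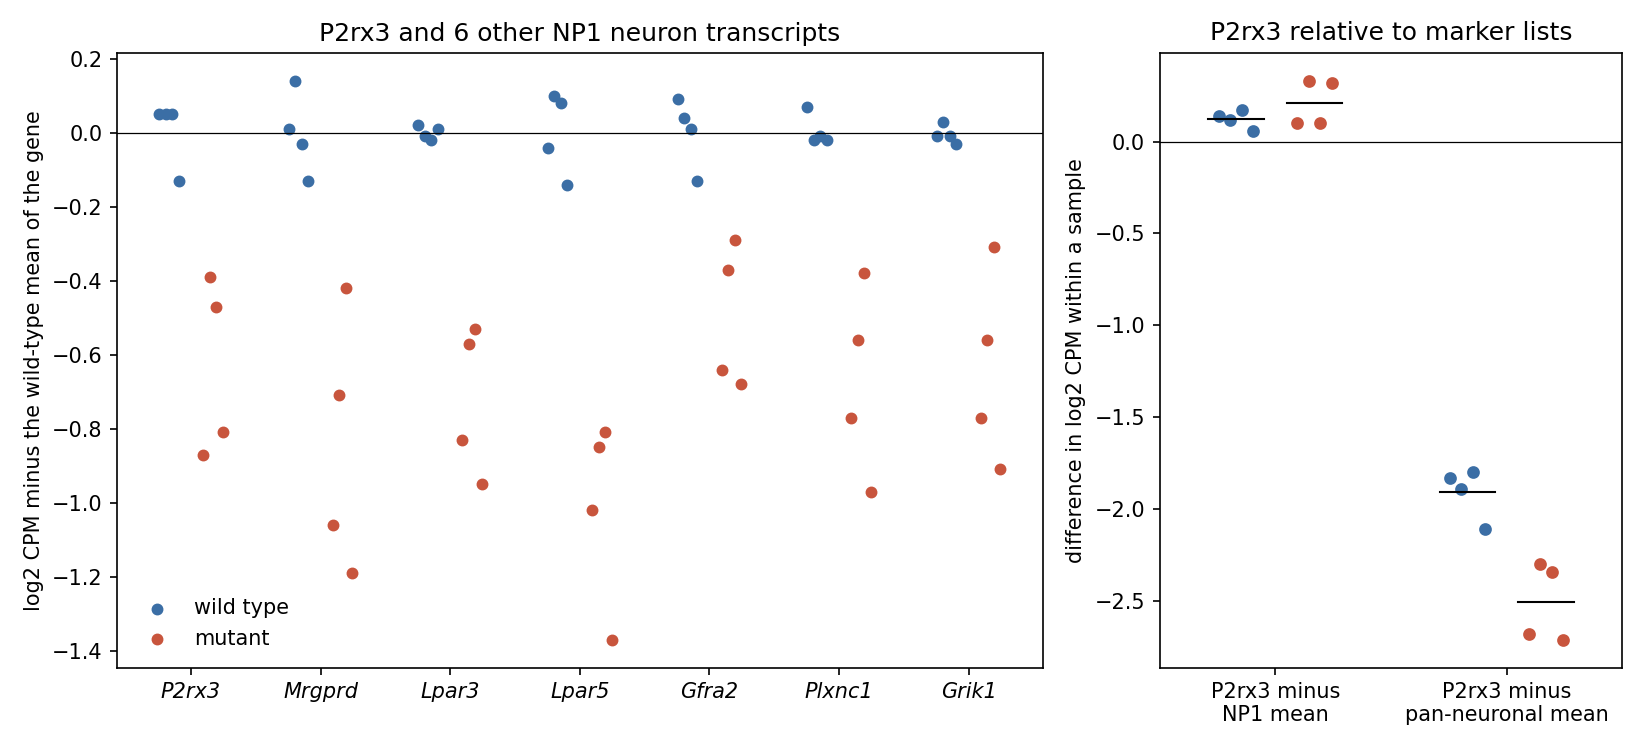
Left, log2 CPM of P2rx3 and 6 other NP1 transcripts in each sample, with the wild-type mean of each gene set to 0 (blue, wild type; red, mutant; samples in label order within a group). Right, log2 CPM of P2rx3 minus the mean of the NP1 or the pan-neuronal list in each sample, with bars at the group means. All mutant points lie below 0 on the left, and on the right the groups separate only against the pan-neuronal list.

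Mutants 1 and 4, the lowest in P2rx3, were also the lowest in each of the 6 NP1 transcripts. Mrgprd, for example, was at 6.97, 7.32, 7.61 and 6.84 in mutants 1 to 4. This order was not confined to NP1 transcripts. The phospholipase gene Plcb3, at 8.98, 9.17, 9.17 and 8.77, was also lowest in mutants 1 and 4. Summed macrophage markers were highest in these 2 mutants, at 96.4, 77.8, 67.4 and 108 CPM in mutants 1 to 4. Those of satellite glia, at 3200, 3220, 2780 and 3630 CPM, did not follow that order. Among 10118 other tested genes with a mean log2 CPM of at least 3, those whose levels followed P2rx3 most closely over the 8 samples were Rgs8, Gfra2 and Tmem164. Their Pearson r was 0.991, 0.985 and 0.983, and after subtraction of the group means 0.96, 0.93 and 0.91. Rgs8, a regulator of G protein signalling, differed by -0.56 (limma adjusted p = 0.0044) and Tmem164 by -0.49 (0.00243). For P2rx2 the 3 closest included Prdm8 and Emc1, with r of 0.957 and 0.955 and of 0.77 and 0.85 within groups. Prdm8, a transcriptional regulator, was called lower (-0.59; limma adjusted p = 0.00721), and Emc1 differed by -0.09 and was not called. These correlations describe 8 samples that share the genotype contrast, and the genes were picked as the highest of many.

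The other 4 P2X genes had slightly higher means in the mutant, none of them called, and under median centring or quantile normalization this held for 3 of the 4, P2rx4 being the exception. P2rx4, the ATP channel of lysosomes and macrophages, had log2 CPM of 4.94, 4.97, 5.01 and 4.88 across wild types 1, 3, 4 and 8 and of 4.89, 4.90, 5.01 and 5.14 across mutants 1 to 4. The groups lay over each other, with a difference of 0.04 (95% confidence interval -0.14 to 0.21; limma adjusted p = 0.848). That interval excludes a change as large as the one seen in P2rx3. Its neighbour on chromosome 5, P2rx7, which opens a large pore and starts interleukin-1 release in immune cells, was at 4.11, 3.83, 3.97 and 3.79 in wild-type samples and 4.15, 3.92, 3.93 and 4.47 in mutant samples. Mutant 4 was the highest and the groups overlapped (difference 0.19, interval -0.09 to 0.48; adjusted p = 0.434). Without mutant 4 the difference was 0.077.

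P2rx5, a subunit found in neurons and in skeletal muscle, had 39 to 87 reads in wild type and 64 to 83 in the mutant. Its log2 CPM was 2.70 in wild type 1 and 3.27 to 3.48 in the other wild types, and 3.30 to 3.60 in the mutants. The difference of 0.27 (interval -0.09 to 0.63; limma adjusted p = 0.382) was 0.10 without wild type 1. P2rx6, a subunit that assembles poorly alone, ranged from 4.53 to 4.84 in wild type and from 4.52 to 4.98 in the mutant (difference 0.14, interval -0.10 to 0.38; adjusted p = 0.507), and its difference was 0.078 without mutant 1, 0.088 without mutant 4 and 0.233 without mutant 3. Transcripts of skeletal muscle varied between these dissections. The 6 markers summed to 2.86 to 33.6 CPM in wild-type samples and 9.86 to 158 CPM in mutant samples, highest in mutant 4. All 5 tested markers had higher means in the mutant (median 1.66), each at an unadjusted limma p under 0.05 (3206 of all 15030 tested genes), and none was called. Their part in the P2rx5 and P2rx6 values was not tested. P2rx6 also shares 417 of its 4019 31-base words with Slc7a4 on the other strand, and Slc7a4 differed by -0.15 (limma adjusted p = 0.438).

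None of the 4 P2Y genes was called by limma, and none had an unadjusted p under 0.05, which 3206 of all 15030 tested genes had. P2ry1, an ADP receptor coupled to Gq, was the most abundant of them, with log2 CPM of 6.82, 6.62, 6.42 and 6.40 across wild types 1, 3, 4 and 8 and 6.52, 6.55, 6.70 and 6.46 across mutants 1 to 4. The mutants lay inside the wild-type range, and the difference of -0.01 had a narrow interval of -0.20 to 0.18 (limma adjusted p = 0.966). Its count is less certain than the others, because 23.0% of its 31-base words also occur in other genes, most of them in the antisense transcript Gm37035. Gm37035 has no value among the genes listed by the authors, so its own level cannot be given.

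P2ry2, the receptor for ATP and UTP, ranged from 4.51 to 4.73 in wild type and from 4.60 to 4.91 in the mutant, a difference of 0.10 (interval -0.10 to 0.31; adjusted p = 0.572) that was 0.036 without mutant 1. P2ry12, the ADP receptor of platelets and microglia, had 16 to 27 reads in wild type and 18 to 27 in the mutant. Its log2 CPM was 1.79, 1.20, 1.41 and 1.89 across wild types 1, 3, 4 and 8 and 2.06, 1.68, 1.88 and 2.05 across mutants 1 to 4 (difference 0.35, interval -0.11 to 0.81; adjusted p = 0.382). The UDP-sugar receptor P2ry14 had 10 to 24 reads in wild type and 15 to 29 in the mutant, with wild type 8 lowest at 0.63 and mutant 4 highest at 2.15 log2 CPM. Its difference of 0.29 (interval -0.31 to 0.88; adjusted p = 0.601) was 0.03 without wild type 8 and 0.13 without mutant 4. For P2ry12 and P2ry14 the intervals are wide, and each includes both 0 and a rise as large as the fall of P2rx3.

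**Figure D3:**
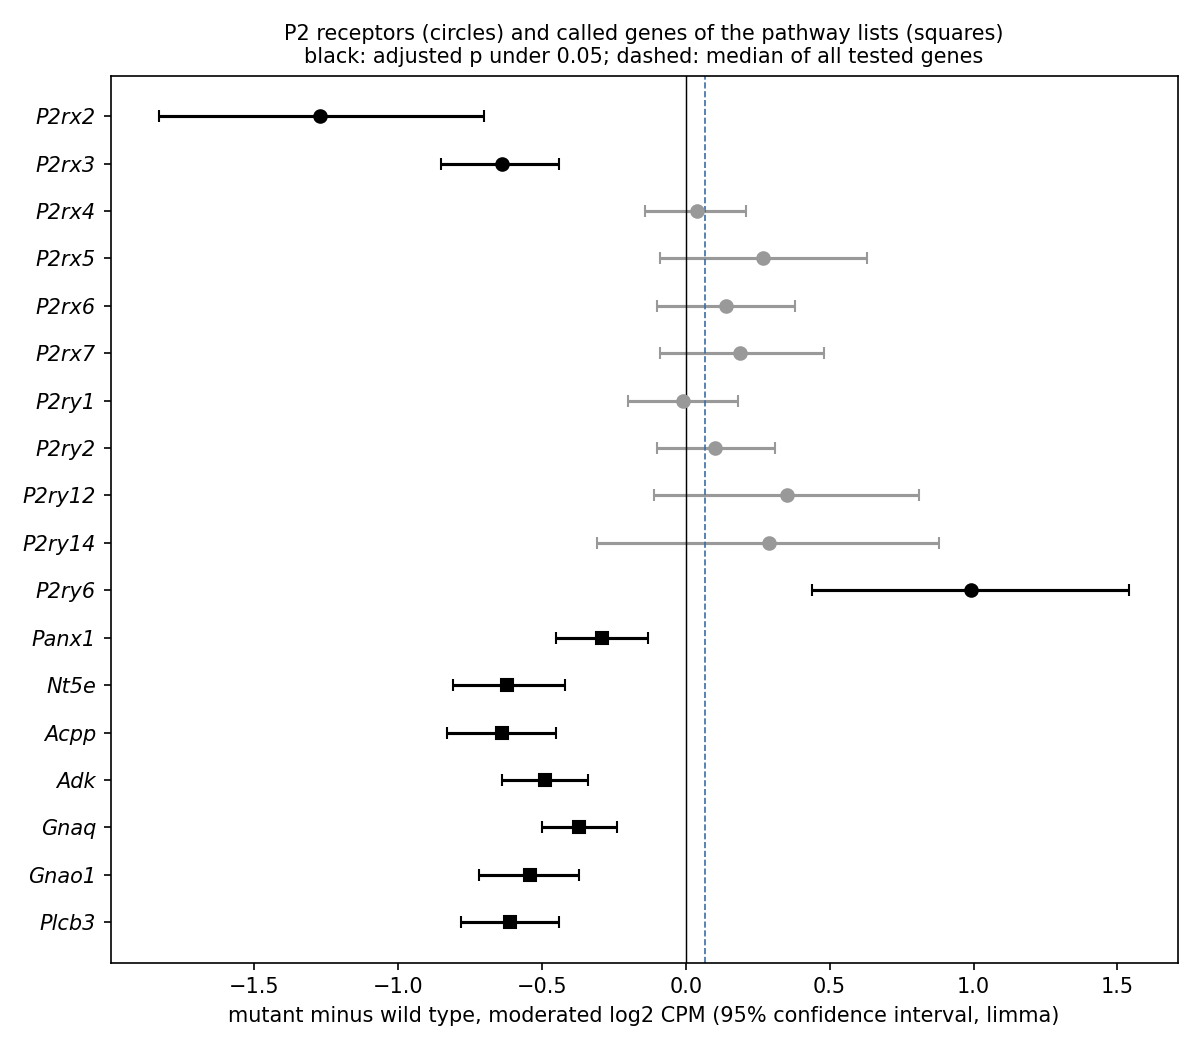
Mutant minus wild type on the moderated log2 CPM scale with 95% confidence intervals from limma, for the 10 P2 receptor genes and P2ry6 (circles) and the called genes of the pathway lists (squares). Black marks an adjusted p under 0.05, and the dashed line is the median of all tested genes, 0.066. Only P2ry6 among the black symbols lies above 0.

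Levels of different genes are compared per length, as CPM per kb of merged exons. In wild type P2rx3 stood first at 66.5 ± 4.08 CPM per kb and P2ry1 second at 22.2 ± 3.12 (SD, n = 4). P2rx6 at 6.23 ± 0.598 and P2ry2 at 6.12 ± 0.404 followed and overlapped each other. P2rx4 at 4.36 ± 0.162 overlapped with P2rx5 at 3.84 ± 0.879, and P2rx5 with P2rx7 at 2.50 ± 0.265. P2rx2 at 1.32 ± 0.443 and P2ry12 at 1.08 ± 0.260 could not be ordered, and P2ry14 was lowest at 0.223 ± 0.0849. Part of this order depends on the length used: per kb of the longest transcript, an alternative chosen after seeing the data, P2rx4 stood at 7.86, between P2ry2 at 7.98 and P2rx6 at 7.36, with P2rx5 at 3.84 and P2rx3 at 102. In the mutant, P2rx2 at 0.468 ± 0.104 CPM per kb lay below P2ry12 at 1.38 ± 0.181 with no overlap, and P2rx3 remained first at 42.9 ± 7.08.

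P2rx3 made up 77.4% to 79.5% of the summed P2X level per kb in wild-type samples and 63.2% to 73.7% in mutant samples. The other 5 P2X genes together summed to 18.3 ± 1.10 CPM per kb (wild type) and 19.3 ± 1.81 (mutant; SD, n = 4). The share of P2rx3 did not overlap between the groups, and the sum of the other P2X genes did. The difference in share largely restates the P2rx3 call and adds no independent support.

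**Figure D4:**
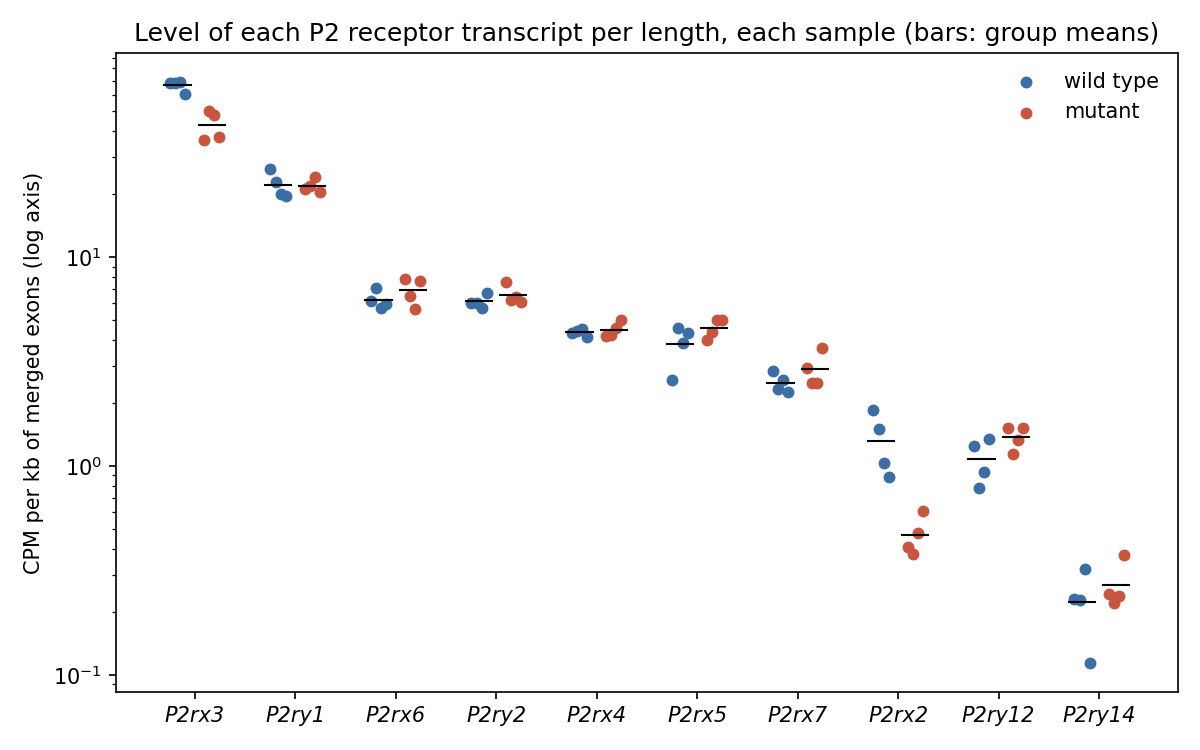
CPM per kb of merged exons for the 10 P2 receptor genes in each wild-type (blue) and mutant (red) sample, on a log axis, ordered by the wild-type mean, with bars at the group means. P2rx3 is highest in all samples, and P2rx2 lies below P2ry12 in the mutants.

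Of the 5 P2 receptor genes outside the 10, only P2ry6 had enough reads to be tested, and it was higher in the mutant. P2ry6, a UDP receptor of phagocytes and a neighbour of P2ry2 on chromosome 7, had 5, 6, 7 and 11 reads in wild types 1, 3, 4 and 8 and 13, 12, 17 and 17 in mutants 1 to 4. No mutant was as low as the highest wild type. The log2 rise was 0.99 (limma SE 0.258, adjusted p = 0.0374), and the call was lost in 11 of 19 alternatives, among them with Xist as a covariate (adjusted p = 0.0546), and at an adjusted p of up to 0.104 without mutant 4. Of 8 tested macrophage markers 1, Cd163, was called higher. Means were higher in the mutant for 7 of the 8 (6 of 8 under quantile normalization) and lower for Cd68 (-0.19), and all 8 overlapped between the groups. The 9 markers summed to 49.6 to 78.8 CPM in wild-type samples and 67.4 to 108 CPM in mutant samples. Their part in the P2ry6 value, or in those of P2rx4, P2rx7 and P2ry12, was not tested. P2ry13 had 2 to 5 reads in wild type and 4 to 8 in the mutant, and P2rx1, P2ry4 and P2ry10 had at most 2 reads in any library.

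Satellite glia, which also carry P2 receptors, were followed through 8 markers. All 8 had higher means in the mutant (7 of 8 under median centring or quantile normalization) and 1, Glul, was called, while 9684 of all 15030 tested genes had higher means. Among Schwann cell markers 7 of 8 had higher means (6 of 8 under quantile normalization), with Ncmap and Drp2 called. Among fibroblast markers 6 of 6 did (4 of 6 under median centring, 5 of 6 under quantile normalization), with Dcn called. The sum of the satellite glia markers was 2540 to 2940 CPM in wild-type samples and 2780 to 3630 CPM in mutant samples, and its part in the P2Y and P2X7 values was not tested.

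The genes that release, break down and transmit the nucleotide signal were taken from lists by role. ATP release was covered by 7 tested genes of 10, of which Panx1, the pannexin channel, was called lower and none higher. Panx1 fell by 0.29 log2 units (limma SE 0.0762, adjusted p = 0.0384), from 60.8 ± 3.38 to 49.7 ± 4.33 CPM (SD, n = 4). This call was lost in 8 of 19 alternatives, namely without the variance trend (adjusted p = 0.128), with Xist as a covariate (0.0563) and without single samples: wild types 1 (0.114), 3 (0.0851) and 4 (0.0740) and mutants 1 (0.0830), 3 (0.0692) and 4 (0.102). The vesicular nucleotide transporter Slc17a9 had at most 3 reads in any library.

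Of 11 tested enzymes on the list for extracellular nucleotide hydrolysis, which was drawn up by gene family, 2 were called lower and none higher. The 2, Acpp and Nt5e, turn AMP into adenosine, as does the alkaline phosphatase Alpl, which differed by 0.44 in the other direction without being called (unadjusted p = 0.0313, limma adjusted p = 0.182). Entpd1 and Enpp1 also had unadjusted p under 0.05 with higher means (0.36 and 0.33; limma adjusted p of 0.184 and 0.220). Acpp, prostatic acid phosphatase, had log2 CPM of 9.44, 9.49, 9.32 and 9.44 across wild types 1, 3, 4 and 8 and 8.73, 8.74, 9.10 and 8.56 across mutants 1 to 4. The groups were apart, and the mean went from 686 ± 34.2 to 445 ± 73.3 CPM (difference -0.64, SE 0.0889; limma adjusted p = 0.00127). Nt5e, the ecto-5'-nucleotidase CD73, went from 56.5 ± 2.41 to 37.0 ± 5.28 CPM (SD, n = 4; difference -0.62, SE 0.0906; limma adjusted p = 0.00172). Both sizes are close to that of P2rx3. Entpd3, the nucleoside triphosphate diphosphohydrolase of sensory neurons, differed by -0.11 and was not called (adjusted p = 0.267), and the median of the 11 enzymes was 0.06, or -0.03 under median centring and -0.06 under quantile normalization. Without the variance trend Acpp was not called (adjusted p = 0.0549).

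Among 9 tested genes of adenosine reception and clearance, Adk was called lower and none higher, with a median of -0.19. Means were lower for 7 of the 9, and for all 9 under median centring (median -0.28) or quantile normalization (-0.19). At an unadjusted limma p under 0.05 there were 5, all lower, beside 3206 of all 15030 tested genes in either direction. Adk, the kinase that returns adenosine to AMP inside cells, went from 161 ± 5.54 to 115 ± 11.4 CPM (SD, n = 4; difference -0.49, SE 0.0706; limma adjusted p = 0.00157). The receptor Adora1 differed by -0.20 (limma adjusted p = 0.0602) and adenosine deaminase, Ada, by -0.75 (adjusted p = 0.0710), and neither was called. The groups did not overlap for 4 of the 9 genes, Adora1 and Ada among them, against 12.4% of all tested genes.

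The G protein alpha subunits and phospholipase C beta isoforms through which P2Y receptors signal were all tested, and 3 of 12 were called lower and none higher, with a median of -0.02. Plcb3, the phospholipase C beta of small sensory neurons, went from 792 ± 40.8 to 523 ± 67.0 CPM (difference -0.61, SE 0.0800; limma adjusted p = 0.000917). Gnao1, the Go alpha subunit, went from 1010 ± 29.0 to 701 ± 95.9 CPM (difference -0.54; adjusted p = 0.0021), and Gnaq from 579 ± 18.7 to 449 ± 37.3 CPM (difference -0.37; adjusted p = 0.00346). Without the variance trend Gnao1 and Gnaq were not called (adjusted p of 0.0648 and 0.0713). Plcb4 and Plcb1 were higher by 0.24 and 0.23 and were not called (adjusted p of 0.0650 and 0.0574). Of the P2X7 inflammasome route, 4 of 7 genes were tested and none was called by limma or by voom. Their median was 0.21 (0.11 under median centring and 0.13 under quantile normalization). An unadjusted limma p under 0.05 was found for 1 of the 4, beside 3206 of all 15030 tested genes.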

How the data were processed

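RNA was read as single-end libraries, per the labels' protocols. Values deposited by the authors are moderated log2 CPM, 1 column per sample, and the submitters' processing notes name Salmon 0.11.1, DESeq2 and the build mm9. Strand use is not given in the sources used here. Repeated identifiers carried identical values and were used once. With the shared floor of -1.79, the value of 0 reads, removed on the linear scale, 100.0% of values were whole multiples of 1 read (within 0.01), which gave reads, CPM and library totals.

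Columns were matched to samples by genotype and number. Groups were compared with limma 3.58.1 in R 4.3.3 (lmFit and eBayes, trend on, two-sided, no covariate) over genes with log2 CPM above 0 in at least 4 of 8 samples. The procedure was tested on simulated data. Per-sample differences were tested by exact permutation (70 assignments, two-sided). Lengths, overlaps and 31-base words came from GENCODE M21 (GRCm38), whose build differs from mm9, so no positions are given. The genes named are the 10 members, called genes of the pathway and NP1 lists, other P2 receptor genes, genes overlapping a member, and the 3 genes most correlated with each called member; 1 gene of the NP1 list, left out of its values, and 1 correlated gene are not reported here. Genes named as not called, Slc17a9, Xist and the genes named from marker lists other than NP1 were added after their values were seen. Members and lists were chosen with earlier results of these data known. Running numbers in the column names, of unstated meaning, are consecutive for the mutants alone, and as a batch cannot be told apart from genotype. Alternatives covered the filter, pseudocount, scaling, variance model, Xist as a covariate, voom, single samples and replicate numbers.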

Additional observations from a re-analysis of the deposited data

Results flagged for a closer look

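Groups of 4 values were examined for 1 sample far from the other 3. They covered the members, the called genes of the pathway and NP1 lists and the per-sample differences. Of 54 groups 2 were picked out, where chance gives about 2.7. P2rx3 in wild type 8 was at 7.40 log2 CPM against 7.58 in the other wild types. Gnao1 in mutant 4 was at 9.13 log2 CPM against 9.51 to 9.58 in the other mutants.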

How the results depend on the processing

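P2rx2 and P2rx3 kept their direction in all 19 alternatives, and P2rx2 was called in 17 and P2rx3 in 18. Without the variance trend limma called 0 members, with 2 at an unadjusted p under 0.05. The share of all genes at that threshold was not taken for this fit. With the trend it was 3206 of 15030 genes, so the 2 are not read as support. Single samples left out gave 1 to 2 called members. Over all genes 820 were called, and 142 without the trend, 1488 at an adjusted p under 0.1 and 404 to 935 with 1 sample left out (404 without wild type 1, 457 without mutant 1, 495 without wild type 3 and 501 without mutant 4). Higher and lower calls, 423 and 397, were 204 and 706 under median centring, 271 and 422 under quantile normalization, 67 and 75 without the trend, 876 and 612 at 0.1, and 174 to 572 and 230 to 427 with 1 sample left out. The cause of these changes was not tested. P2rx4 was at -0.056 under median centring, at -0.024 under quantile normalization, and between -0.015 and 0.069 with 1 sample left out. P2ry1 lay between -0.064 and 0.076 with 1 sample left out. P2rx3 relative to the NP1 mean differed by 0.05 to 0.13, and relative to the pan-neuronal mean by -0.67 to -0.53, with 1 sample left out. Of 16 called genes among the members, the pathway lists and the NP1 list, 5 were called in every alternative and 10 were lost without the trend. Called genes of the other marker lists are not in this count. Between the scalings, the smaller uncalled differences also moved: under median centring P2rx5 was 0.178, P2rx6 0.050, P2rx7 0.102 and P2ry2 0.011.

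Whether the numbers 1, 3 and 4 shared by the groups pair the samples could not be told. Deviations of same-numbered samples correlated at 0.081, 0.041 and 0.058, with no different-numbered values beside them for comparison. Fitting a replicate block in those 6 samples called 671 genes and 2 members, and 447 genes (180 higher, 267 lower) and 2 members in the same 6 samples without it. In the block P2ry6 was not called (1.19; adjusted p = 0.0598). Depth limits P2rx2, P2ry6, P2ry12 and P2ry14, which had 5 to 31 reads per library.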
